A study of Arabidopsis thaliana with 6 samples.

Results

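The genes described here encode 8 nuclear-encoded relatives of the light-harvesting proteins of Arabidopsis thaliana, in leaves moved to low CO2. They are the early light-induced protein genes ELIP1 (probe set AT3G22840_at) and ELIP2 (probe set AT4G14690_at), the single-helix protein genes OHP1 (probe set AT5G02120_at) and OHP2 (probe set AT1G34000_at), LIL3:1 (probe set AT4G17600_at), LIL3:2 (probe set AT5G47110_at), the stress-enhanced protein gene SEP2 (probe set AT2G21970_at) and PSBS (probe set AT1G44575_at, also called NPQ4). They were chosen by name as members of this family, and all 8 had a probe set among the 21430 in the table. All 8 also passed the filter on low values, which asked for log2 4 on 3 or more arrays and left 16210 probe sets to test. Plants grew in soil under short days in 400 ppm CO2 for 6 weeks, and were then placed in 100 ppm CO2 for 24 h or left at 400 ppm. There were 3 Affymetrix arrays of each group, and each held leaf RNA pooled from 4 to 5 plants. No genotype or accession of the plants is stated in the sources used here. Nothing in the labels says that the pools were grown at separate times, so the p-values measure only the spread between these pools.

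These proteins share membrane helices with the antenna proteins that bind chlorophyll and harvest light, but they serve protection and assembly of the photosystems instead. ELIPs accumulate for a short time under strong light and are thought to hold chlorophyll set free during damage. PSBS senses acidification of the thylakoid lumen and is needed for the rapid dissipation of excess absorbed light as heat, known as energy-dependent quenching. Low CO2 limits the Calvin-Benson cycle as a sink for light energy and favours the oxygenation reaction of Rubisco, which starts photorespiration.

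The array of low CO2 replicate 1 stood apart from its group. Over the tested probe sets, r was 0.980 to 0.986 between it and arrays of ambient plants. Against its own group, r was only 0.962 for replicate 2 and 0.947 for replicate 3. These correlations run across genes, which are not independent replicates. With all 6 arrays limma called 0 of 16210 probe sets (0%) in either direction at the threshold, an adjusted p of 0.05, although 4236 (26.1%) had an unadjusted p under 0.05. A fit that left out low CO2 replicate 1, called the 5-array fit here, gave 2722 higher (16.8%) and 3001 lower (18.5%). It sets 2 arrays against 3, and was singled out after these correlations had been seen. Below, "rose" and "fell" are used only for genes called in the 5-array fit. Differences are log2 values of low CO2 minus ambient CO2.

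Markers of other cell types were read beside the family. The 4 leaf mesophyll markers with a probe set had mean levels of log2 13.65 to 14.12 in low CO2 and 13.57 to 14.18 in ambient CO2, and a median difference of -0.00 (RCA, Rubisco activase, -0.05, CA1, a carbonic anhydrase, 0.08, and LHCB5 -0.14). The 4 root markers tested had means of 3.98 to 9.30 and 4.23 to 9.28, where 9.30 and 9.28 belong to PYK10, and IRT1 lay under the filter. Root markers EXPA7, COBL9 and NRT2.1 differed by -0.45, -0.25 and -0.04.

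Dividing cell markers were lower in 4 of 4, with a median of -0.54, and PCNA1 and KNOLLE fell in the 5-array fit, while CYCB1;1 differed by -0.39. Mean levels of these markers were log2 4.49 to 7.36 in low CO2 and 4.88 to 8.28 in ambient CO2. Guard cell markers were lower in 5 of 6, with a median of -0.36, and KAT1, FAMA and SDD1 fell in the 5-array fit, while MYB60 differed by -0.35. Guard cell markers had mean levels of log2 4.55 to 6.59 in low CO2 and 4.55 to 6.97 in ambient CO2. Of all tested probe sets 18.5% fell and 16.8% rose in the 5-array fit, and 8718 of 16210 had a lower mean with all 6 arrays. Among 4 vascular markers 3 had a higher mean and 1 a lower mean, with a median of 0.19 and a lowest difference of -0.16. SWEET12 rose in the 5-array fit, and SUC2 and XCP1 differed by 0.18 and 0.20. Of 4 epidermis and trichome markers 2 had a higher mean and 2 a lower mean, with a median of -0.04. GL2, CER5 and FDH differed by 0.11, -0.18 and -0.21. Fewer cells of a type and less RNA per cell cannot be told apart in pooled leaves, and the part of either in the results below was not tested.

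**Figure D1:**
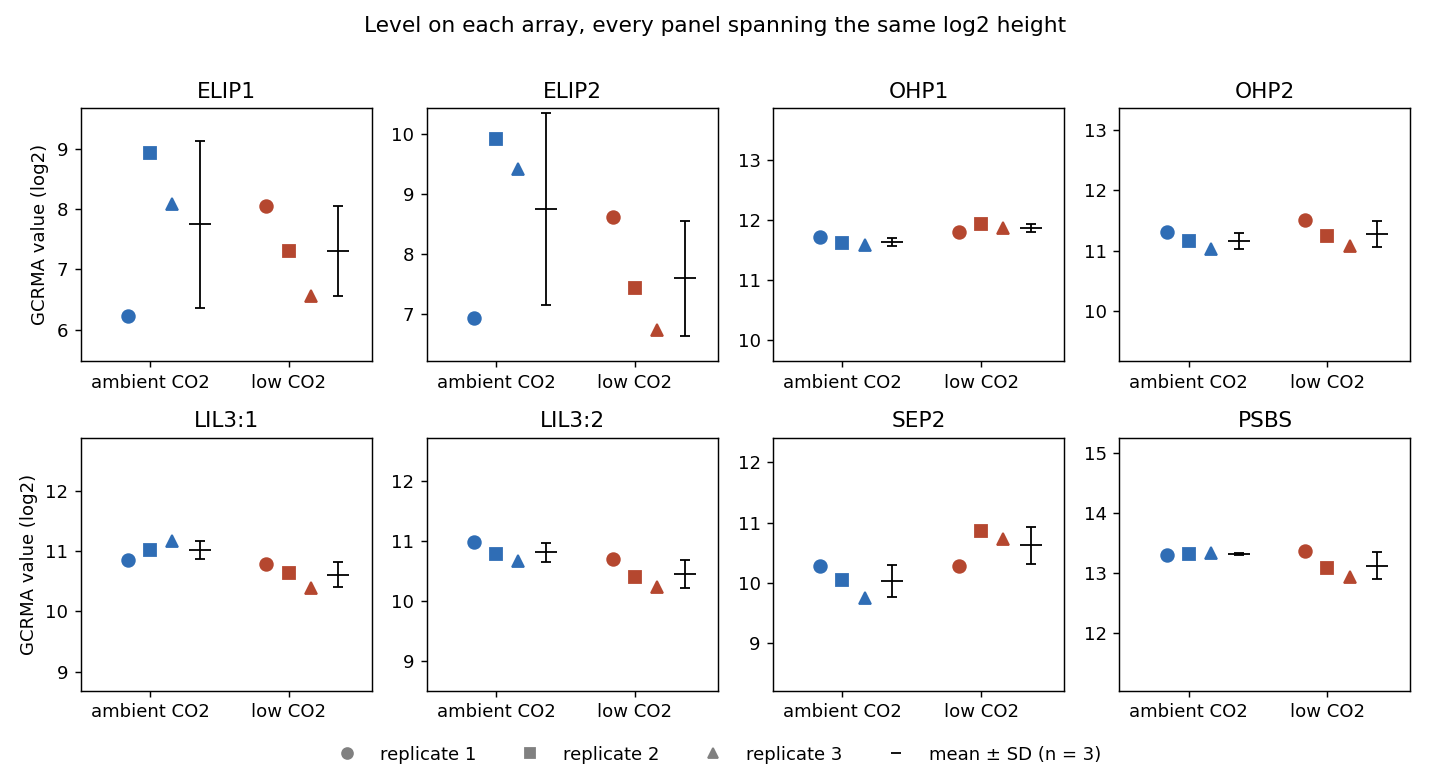
Level of each of the 8 genes on each array, as the deposited GCRMA value on a log2 scale. Points are arrays (ambient CO2 in blue, low CO2 in red, marker shape for the replicate number), and the black bars give the mean and SD of 3 arrays; ELIP1 and ELIP2 spread over more than 2 log2 units within the ambient group, while PSBS in ambient CO2 spans 0.04.

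Among the 8 genes, 5 had a lower mean and 3 a higher mean in low CO2. LIL3:1, LIL3:2, PSBS, ELIP1 and ELIP2 were the lower ones, and SEP2, OHP1 and OHP2 the higher ones. By limma with all 6 arrays 0 of 8 passed an adjusted p of 0.05, and 2 had an unadjusted p under 0.05. In the 5-array fit SEP2 rose and LIL3:1 and LIL3:2 fell, which is 1 of 8 against 16.8% of all probe sets and 2 of 8 against 18.5%. With array weights 6 of 8 passed (all but ELIP1 and OHP2), in a fit that called 8252 of the 16210 probe sets. The groups did not overlap for OHP1, which was higher, and for LIL3:1, which was lower. Among all tested probe sets 14.6% lay wholly higher and 14.3% wholly lower, so the family's shares were near those of the array as a whole. The median difference over the 8 genes was -0.28, beside -0.03 over all 16210.

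ELIP1 and ELIP2 were set apart from the other 6 genes by their spread, which was wider among plants in ambient CO2 than in low CO2. ELIP2 stood at log2 6.93, 9.91 and 9.42 on ambient replicates 1, 2 and 3 and at 8.61, 7.43 and 6.73 on low CO2 replicates 1, 2 and 3. Ambient replicate 1 lay between the lowest pair of low CO2 arrays, and the groups overlapped. ELIP1 stood at 6.22, 8.93 and 8.09 on the ambient arrays and at 8.06, 7.31 and 6.56 on the low CO2 arrays. Its lowest value of all 6 was that of ambient replicate 1, and ambient replicate 3 nearly equalled low CO2 replicate 1.

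The ambient range of ELIP2 was 2.97 on the log2 scale, a 7.85-fold span, and that of ELIP1 was 2.71, a 6.54-fold span. The median ambient range over the 16210 tested probe sets was 0.27. Only 7 tested probe sets (0.0432%) had an ambient range at least as wide as ELIP2, itself included, and 13 (0.0802%) one at least as wide as ELIP1. Those that ranked above ELIP2 included KTI1, a trypsin inhibitor gene, at 4.02 and GPT2, a plastid glucose-phosphate translocator gene, at 3.56. Both were chosen after their values were seen. Like ELIP2, both were highest of the ambient arrays on replicate 2 and lowest on replicate 1. The other 4 above ELIP2 were not: the genes at AT5G62280, AT5G02760 and AT5G05600 were highest on ambient replicate 1 and lowest on replicate 2, and the gene at AT5G39520 was lowest on replicate 3.

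Against that spread neither gene passed limma with all 6 arrays or with any single array left out. With array weights ELIP2 passed at -1.87 (limma adjusted p = 0.0151), and ELIP1 did not, at -0.90 (limma adjusted p = 0.127). That fit called 8252 of the 16210 probe sets. It gave low CO2 replicate 1 little weight and low CO2 replicate 2 the most. Among the ambient arrays it gave the least weight to replicate 1, where both ELIP genes were lowest. Which of these weights let ELIP2 pass was not tested. The low CO2 mean of ELIP2 was 7.59 ± 0.95 and its ambient mean 8.75 ± 1.59 (SD, n = 3 each), a difference of -1.16 (SE 0.83, 95% interval -3.12 to 0.80) with a limma adjusted p of 0.391. Leaving out ambient replicate 1 moved it to -2.07, and leaving out low CO2 replicate 1 moved it to -1.67 (limma adjusted p = 0.150). Without ambient replicate 2 the difference of ELIP2 was -0.58. ELIP1 averaged 7.31 ± 0.75 against 7.75 ± 1.39, a difference of -0.44 (SE 0.70, 95% interval -2.11 to 1.23, limma adjusted p = 0.709). It became -1.20 without ambient replicate 1 and turned to 0.15 without ambient replicate 2.

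The pair was also compared directly. Taken on each array, ELIP1 minus ELIP2 was higher on all 3 low CO2 arrays than on all 3 ambient arrays, a shift of 0.72 on the log2 scale. The exact permutation test, two-sided, gave p = 0.1, the smallest that 3 against 3 arrays allow, and 0.367 after Benjamini-Hochberg adjustment over the 11 such comparisons made. The shift lay between 0.56 and 0.86 whichever array was left out.

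**Figure D2:**
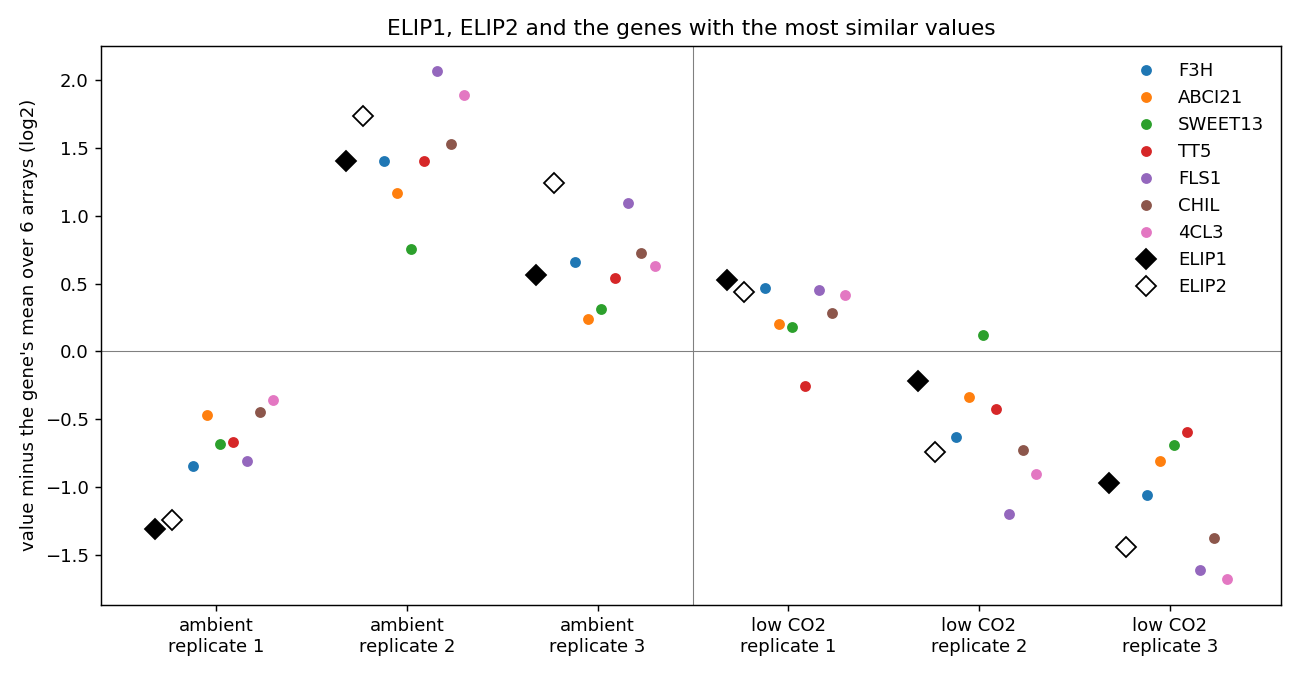
Values of ELIP1, ELIP2 and the 7 other genes closest to them, each minus that gene's own mean over the 6 arrays, in log2 units. Each column is an array and each point a gene; ambient replicate 1 and low CO2 replicate 3 lie below 0 for all 9 genes, and ambient replicates 2 and 3 above 0.

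The probe sets most like the ELIP genes over the 6 arrays were found by the root mean square distance between values centred on each gene's mean. For ELIP1 the closest was F3H, which encodes flavanone 3-hydroxylase, at a distance of 0.26 on the log2 scale. It was followed by ABCI21, an ATP-binding cassette protein gene, at 0.41, ELIP2 at 0.42, the sugar transporter gene SWEET13 at 0.45 and TT5, which encodes chalcone isomerase, at 0.45. For ELIP2 the closest was FLS1, which encodes flavonol synthase, at 0.30. Then came F3H at 0.36, the chalcone isomerase-like gene CHIL at 0.40, ELIP1 at 0.42 and 4CL3, which encodes a 4-coumarate:CoA ligase, at 0.46.

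F3H read 8.76, 11.01 and 10.26 on ambient replicates 1, 2 and 3, and 10.07, 8.97 and 8.55 on low CO2 replicates 1, 2 and 3. FLS1 read 6.96, 9.83 and 8.86 on the ambient arrays and 8.22, 6.57 and 6.16 on the low CO2 arrays. Because these genes were picked for likeness over the same 6 arrays, a shared order of arrays follows from the choice. In all 7 genes other than the ELIP pair, ambient replicate 1 was the lowest ambient array, ambient replicate 2 the highest, low CO2 replicate 1 the highest low CO2 array and replicate 3 the lowest. None of the 7 passed limma with all 6 arrays, with adjusted p-values from 0.230 to 0.705. CHIL fell by 1.65 and 4CL3 fell by 2.01 in the 5-array fit (limma adjusted p = 0.0464 and 0.0377).

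The LIL3 proteins bind and stabilise enzymes of the last steps of chlorophyll synthesis, among them geranylgeranyl reductase and protochlorophyllide oxidoreductase. LIL3:1 stood at 10.80, 10.65 and 10.40 on low CO2 replicates 1, 2 and 3 and at 10.86, 11.03 and 11.17 on ambient replicates 1, 2 and 3. Every low CO2 array lay below every ambient array, but the nearest values of the groups were close. The difference was -0.41 (SE 0.15, 95% interval -0.76 to -0.06, limma adjusted p = 0.156), so that ambient leaves held 1.33-fold more. In the 5-array fit LIL3:1 fell by 0.50 (limma adjusted p = 0.0314), and over all single omissions its difference lay between -0.50 and -0.30.

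LIL3:2 stood at 10.70, 10.40 and 10.24 on the low CO2 arrays and at 10.99, 10.78 and 10.66 on the ambient arrays. Low CO2 replicate 1 lay just above ambient replicate 3, and the groups overlapped there. The difference was -0.36 (SE 0.16, 95% interval -0.74 to 0.01, limma adjusted p = 0.201). It fell by 0.49 without low CO2 replicate 1 (limma adjusted p = 0.0297), and over single omissions the difference lay between -0.49 and -0.26. LIL3:1 minus LIL3:2 shifted by -0.05 between the groups, less than the ambient SD of 0.32 of that quantity (exact permutation p = 0.8, two-sided).

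Genes of tetrapyrrole and chlorophyll synthesis were lower in low CO2 in 25 of 26, with a median difference of -0.33 beside -0.03 over all tested probe sets. The 3 low CO2 values lay below all ambient values for 15 of 26, where 14.3% of all tested probe sets did. By limma 0 passed with all 6 arrays, and 11 of 26 fell and 0 rose in the 5-array fit, where 18.5% and 16.8% of all did. The list's median difference from the ambient mean was -0.12 on low CO2 replicate 1, -0.26 on replicate 2 and -0.34 on replicate 3. CHLI1, a subunit of the magnesium chelatase, fell by 0.76 without low CO2 replicate 1 (limma adjusted p = 0.00497, and 0.120 with all 6 arrays). HEMB1, which encodes 5-aminolevulinic acid dehydratase, read 9.84, 9.78 and 9.53 on the low CO2 arrays and 10.29, 10.19 and 10.22 on the ambient arrays, and HEME2, a uroporphyrinogen decarboxylase gene, differed by -0.57 (SE 0.15). In the 5-array fit HEMB1 fell by 0.58 (limma adjusted p = 0.0115) and HEME2 fell by 0.69 (limma adjusted p = 0.00745).

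The known partners of LIL3 were looked up outside the naming rule, after their values were seen. CHLP, geranylgeranyl reductase, differed by -0.19 (SE 0.12, limma adjusted p = 0.357), with overlapping groups. The protochlorophyllide oxidoreductase genes PORA, PORB and PORC differed by -0.48, -0.36 and -0.29. Each of those 3 was lower on every low CO2 array than on every ambient array, and none passed limma with 6 arrays (adjusted p = 0.157, 0.214 and 0.207) or without low CO2 replicate 1 (0.122, 0.236 and 0.0822).

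SEP2 belongs to the stress-enhanced proteins of the thylakoid, whose transcripts are known to increase in strong light. It stood at 10.27, 10.86 and 10.74 on low CO2 replicates 1, 2 and 3 and at 10.28, 10.05 and 9.75 on ambient replicates 1, 2 and 3. Low CO2 replicates 2 and 3 were above every ambient array, while replicate 1 was level with the highest ambient array. The difference was 0.60 (SE 0.20, 95% interval 0.11 to 1.08, limma adjusted p = 0.146), or 1.51-fold. SEP2 rose by 0.77, or 1.71-fold, in the 5-array fit (limma adjusted p = 0.0127), and over single omissions its difference lay between 0.46 and 0.77.

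Among 4 further relatives, SEP1, PSB33, FC2 and the gene at AT4G28025, 3 had a higher mean and 0 passed limma with or without low CO2 replicate 1. SEP1, the other stress-enhanced protein gene listed, differed by -0.13 (SE 0.14), opposite in sign to SEP2. PSB33, a photosystem II protein gene, differed by 0.13 (SE 0.10) and FC2, a ferrochelatase gene, by 0.18 (SE 0.12). The gene at AT4G28025 differed by 0.28 (SE 0.12), with all low CO2 values above all ambient values.

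OHP1 and OHP2 form a complex that, with the factor HCF244, is needed to make and assemble the photosystem II core protein D1. OHP1 stood at 11.80, 11.93 and 11.86 on the low CO2 arrays and at 11.71, 11.62 and 11.57 on the ambient arrays. The groups were separate, with low CO2 higher throughout, and each had a narrow spread. The difference was 0.23 (SE 0.10, 95% interval -0.02 to 0.48, limma adjusted p = 0.214), or 1.17-fold, and lay between 0.20 and 0.27 over single omissions.

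OHP2 stood at 11.51, 11.25 and 11.08 on the low CO2 arrays and at 11.30, 11.15 and 11.02 on the ambient arrays, with the values of the groups interleaved. Its difference was 0.12 (SE 0.15, 95% interval -0.23 to 0.47, limma adjusted p = 0.621), and it was 0.01 in the 5-array fit. OHP1 minus OHP2 shifted by 0.11 between the groups, within the low CO2 SD of 0.25 of that quantity (exact permutation p = 0.5, two-sided). HCF244, looked up as their partner after its value was seen, differed by 0.06 (SE 0.10, limma adjusted p = 0.746).

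Of 14 genes of photosystem II assembly and repair, 11 had a higher mean in low CO2, with a median difference of 0.13. By limma 0 passed with all arrays, and in the 5-array fit 1 of 14 rose and 1 fell, beside 16.8% and 18.5% of all tested probe sets. HCF173, needed for translation of the D1 messenger RNA, rose by 0.76 in the 5-array fit (limma adjusted p = 0.0137), and LPA3, an assembly factor gene, fell by 0.51 (limma adjusted p = 0.0185). The thylakoid protease genes FTSH8 and FTSH1 were higher on every low CO2 array than on every ambient array, by 0.42 (SE 0.12) and 0.27 (SE 0.11), without passing in either fit.

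PSBS stood at 13.30, 13.32 and 13.34 on the ambient arrays and at 13.36, 13.09 and 12.93 on low CO2 replicates 1, 2 and 3. Its ambient range of 0.04 was narrow, and 98.1% of tested probe sets had one at least as wide. That was not particular to PSBS. Among antenna genes at similarly high levels the ambient range ran from 0.01 for LHCB3 to 0.39 for LHCB2.3, with LHCB5 at 0.04. For PSBS, low CO2 replicate 1 was the highest of all 6 arrays, and replicates 2 and 3 were the lowest. The difference was -0.19 (SE 0.14, 95% interval -0.52 to 0.13, limma adjusted p = 0.383), and -0.31 in the 5-array fit (95% interval -0.57 to -0.06, limma adjusted p = 0.0617). Leaving out low CO2 replicate 3 instead gave -0.10 (limma adjusted p = 0.763), and these were the extremes over single omissions.

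PSBS acts beside the xanthophyll cycle, in which violaxanthin is turned to zeaxanthin in strong light and back again in weak light. VDE encodes the enzyme of the forward step. It was named as 1 of the 3 genes of its list that rose, and so after its values were seen. It read 9.30, 10.09 and 10.49 on low CO2 replicates 1, 2 and 3. On ambient replicates 1, 2 and 3 it read 9.24, 8.71 and 8.93, all below the low CO2 values. Its difference was 1.00 (SE 0.31, limma adjusted p = 0.136), and in the 5-array fit VDE rose by 1.33 (limma adjusted p = 0.00346). ZEP, zeaxanthin epoxidase of the return step, differed by 0.53 (SE 0.15) and rose by 0.68 without low CO2 replicate 1 (limma adjusted p = 0.00510). LCYB, lycopene beta-cyclase, differed by 0.70 (SE 0.13) and rose by 0.81 in that fit (limma adjusted p = 0.00285).

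Over all 13 genes of the xanthophyll cycle and carotenoid synthesis the median difference was 0.03, and -0.00 after centring each array on its median, with 7 higher and 6 lower. In the 5-array fit 3 of 13 rose (VDE, ZEP and LCYB) and 3 fell, beside 16.8% and 18.5% of all tested probe sets. The 3 that fell were PSY, the phytoene synthase gene, by 0.41, LCYE, the lycopene epsilon-cyclase gene, by 0.48, and the gene at AT1G28100 by 0.46.

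All 10 genes that control quenching and electron flow had a higher mean in low CO2, with a median difference of 0.16. Over all 16210 tested probe sets, 7492 had a higher mean. By limma 0 of the 10 passed with all 6 arrays, and 3 rose and 0 fell in the 5-array fit, where 16.8% and 18.5% of all did. The 3 were TAP38, the phosphatase of antenna proteins, by 0.86 (limma adjusted p = 0.00454), STN7, the kinase that opposes it, by 0.50 (limma adjusted p = 0.0226), and STN8, a kinase of photosystem II core proteins, by 0.37 (limma adjusted p = 0.0291). TAP38 read 10.45, 10.79 and 11.05 on the low CO2 arrays and 10.10, 10.16 and 9.91 on the ambient arrays. PGRL1B, of the cyclic electron flow around photosystem I, differed by 0.36 (SE 0.20), with overlapping groups.

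**Figure D3:**
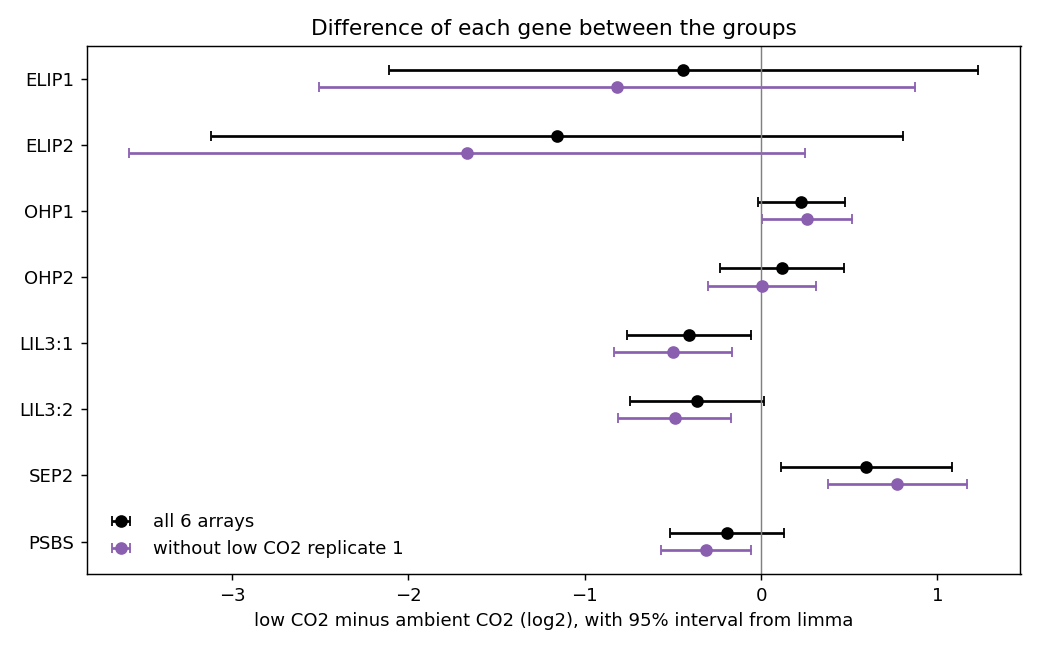
Difference between low CO2 and ambient CO2 for each of the 8 genes in log2 units, with 95% intervals from limma, for all 6 arrays (black) and without low CO2 replicate 1 (purple). The intervals of ELIP1 and ELIP2 are the widest and include 0 in both fits, while those of SEP2 and LIL3:1 exclude 0 in both before adjustment over all probe sets.

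The antenna proteins themselves gave a reference for the family. Of 21 antenna genes listed, 13 had a probe set, and the others, among them all 5 LHCB1 genes listed, were not analysed here. Their median difference was 0.02, and -0.01 after centring, with 7 higher and 6 lower, and 0 passed limma with all 6 arrays. Most of these genes lay near the top of the array scale, and LHCA3 gave the highest value on low CO2 replicates 2 and 3. Whether differences so near the top of the scale were compressed was not tested. LHCB7, an antenna gene at a lower level, differed by 0.89 (SE 0.21) with all arrays. It rose in the 5-array fit (limma adjusted p = 0.00266). LHCA5, LHCA6 and LHCB4.3, also at lower levels, differed by 0.02, 0.07 and 0.18. Of the 13 antenna genes 1 rose and 0 fell in that fit, beside 16.8% and 18.5% of all tested probe sets. With all 6 arrays LHCB3, LHCB5 and LHCB6 lay wholly lower in low CO2, which is 3 of 13 against 14.3% of all. LHCB7 lay wholly higher, which is 1 of 13 against 14.6%. LHCB5 and LHCB6, minor antenna proteins of photosystem II, differed by -0.14 (SE 0.10) and -0.15 (SE 0.11).

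Each of the 8 genes was then set against the antenna median on the same array, with exact permutation tests, two-sided. That median also lay near the top of the array scale, so the same limit holds for these shifts. SEP2 shifted upward relative to the antenna by 0.52 and OHP1 by 0.16, both with separate groups and a permutation p = 0.1, the smallest possible. LIL3:1, LIL3:2 and PSBS shifted by -0.48, -0.44 and -0.27, each at permutation p = 0.2. ELIP2 shifted by -1.23 (permutation p = 0.3), ELIP1 by -0.51 (permutation p = 0.7) and OHP2 by 0.05 (permutation p = 0.9). Over single omissions the shift lay between -2.22 and -0.59 for ELIP2, between -1.35 and 0.14 for ELIP1, between -0.10 and 0.15 for OHP2 and between -0.42 and -0.16 for PSBS. None was below 0.367 after adjustment over the 11 comparisons, and 3 against 3 arrays could not have given an unadjusted p under 0.1. With quantile normalization of the arrays OHP1 shifted by 0.14 at permutation p = 0.2, while SEP2 stayed at permutation p = 0.1.

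**Figure D4:**
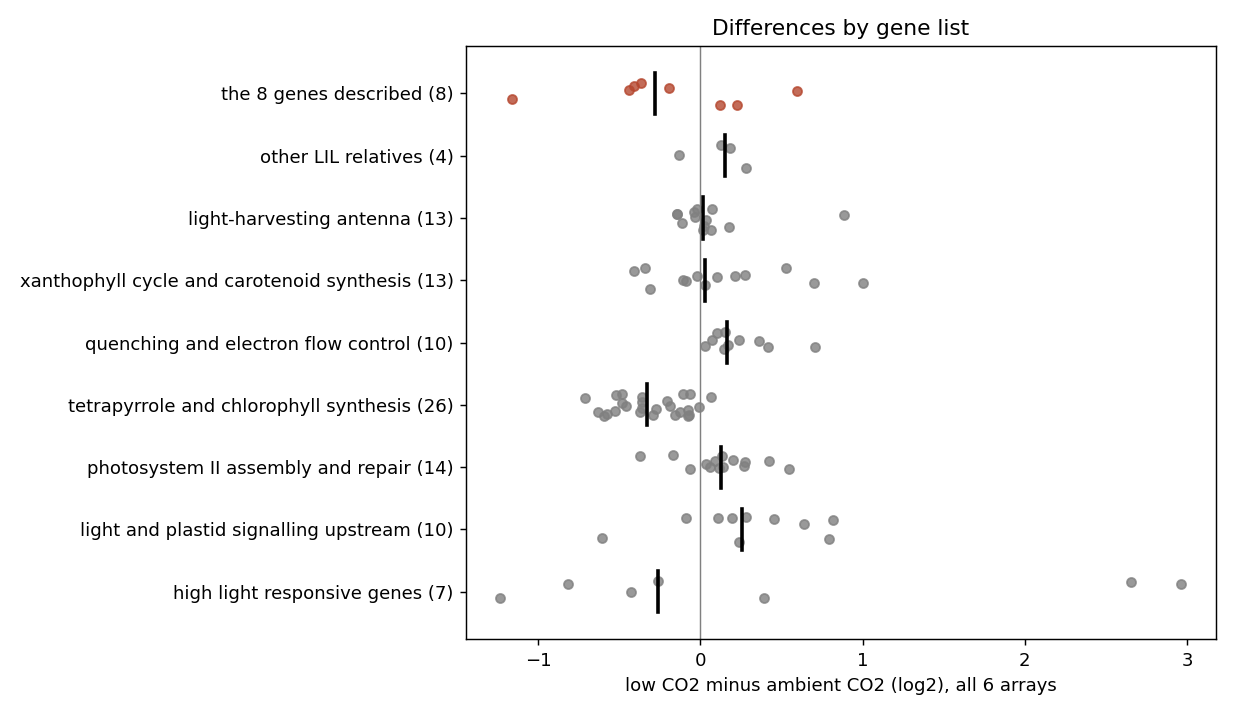
Difference between low CO2 and ambient CO2 for each gene with all 6 arrays, in log2 units, by list, with the number of genes tested in brackets. Points are genes, shifted vertically at random, and black bars are medians; the tetrapyrrole and chlorophyll list lies almost wholly below 0, with a median of -0.33, and the 10 quenching and electron flow genes lie above it.

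ELIP genes are known targets of light signalling through the transcription factor HY5 and of the blue light receptor cryptochrome. HY5 read 5.59, 6.61 and 6.43 on low CO2 replicates 1, 2 and 3 and 5.30, 5.64 and 5.31 on ambient replicates 1, 2 and 3. Low CO2 replicate 1 lay just under the highest ambient array, and the others lay above all of them. Its difference was 0.79 (SE 0.27, limma adjusted p = 0.147), and HY5 rose by 1.11 in the 5-array fit (limma adjusted p = 0.00261). The means of ELIP1 and ELIP2 differed in the opposite direction, but neither passed limma in either fit. The difference of ELIP1 turned to 0.15 without ambient replicate 2.

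Over 10 genes of light and plastid signalling, 8 had a higher mean and the median difference was 0.26. By limma 0 passed with all 6 arrays, and in the 5-array fit 3 of 10 rose and 1 fell, beside 16.8% and 18.5% of all tested probe sets. Besides HY5, the 3 were RUP1, a repressor of UV-B signalling, by 0.95 (limma adjusted p = 0.00507), and CRY1, cryptochrome 1, by 0.60 (limma adjusted p = 0.0291). The gene that fell was GLK1, an activator of photosynthesis genes, by 0.82 (limma adjusted p = 0.00871). GLK1 read 10.09, 9.61 and 9.27 on the low CO2 arrays and 10.15, 10.46 and 10.17 on the ambient arrays.

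Genes known to respond to high light went both ways. Of 10 listed, 7 were tested and 3, APX2, BAP1 and HSP17.6, lay under the filter. The median difference was -0.26, and 0.01 without ambient replicate 2, with 3 genes higher and 4 lower. By limma 0 passed with all arrays, and in the 5-array fit 3 of 7 rose and 1 fell, beside 16.8% and 18.5% of all. The zinc finger genes ZAT12 and ZAT10 rose by 4.15 and 3.22 in the 5-array fit (limma adjusted p = 6.71e-05 and 1.23e-04) and CSD2, a plastid superoxide dismutase gene, rose by 0.40 (limma adjusted p = 0.0493). CHS, which encodes chalcone synthase, fell by 1.99 in that fit (limma adjusted p = 0.00557), from 10.45, 11.28 and 11.30 on the ambient arrays to 9.44 and 8.60 on low CO2 replicates 2 and 3, while replicate 1 read 11.29.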

How the data were processed

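Leaf RNA of 3 low CO2 and 3 ambient CO2 pools was labelled with biotin for Affymetrix arrays, per the labels' protocols. The authors deposited 1 log2 value per probe set and array. It came from GCRMA (version not given), as the submitters' processing notes record, and GCRMA corrects background, normalizes between arrays and draws weak probe sets to a floor. The log base was read from the values. No genome build or probe set version is stated in the sources used here, so no coordinates are printed.

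Groups came from the labels. They were compared by limma 3.58.1 in R 4.3.3 (lmFit and eBayes, two-sided, Benjamini-Hochberg over 16210 probe sets), after setting aside 5220 probe sets under log2 4 on more than 3 arrays. The number of arrays limits the precision. Symbols came from RefSeq's TAIR10.1 gene table, which held 21231 of 21430 loci. The fit was tested on simulated data. The rule named all 8 genes, the 3 smallest p-values of each list, list genes in a count of 3 or fewer, and the 5 closest patterns to ELIP1 and to ELIP2, leaving out probe sets without a symbol or sharing all values with another (221). The genes and lists were chosen with earlier results of these data known. Alternatives were a floor of 5 or none, trended and robust variances, quantile normalization, median centring, a replicate block, array weights and single omissions.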

Additional observations from a re-analysis of the deposited data

How the results depend on the processing

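With no filter, a floor of log2 5, trend and robust, quantile normalization, median centring or the replicate block, limma called 0 probe sets, as with the settings of the report, and each of the 8 genes kept its sign and stayed above the threshold. The replicate block gave 3223 probe sets at an unadjusted p under 0.05 in place of 4236, and 0 calls. Same-numbered arrays did not deviate together (r = -0.19, 0.02 and -0.20), and 0 of 3 low CO2 arrays correlated best with their own number, so the numbers were not taken as pairs. Array weights gave 8252 calls. The default estimation of these weights did not converge, so limma's gene-by-gene method was used, and it weighted low CO2 replicate 2 at 4.17 and replicate 1 at 0.18. Among the ambient arrays it weighted replicate 3 most and replicate 1 least. With these weights ELIP2 (-1.87), OHP1 (0.30), LIL3:1 (-0.47), LIL3:2 (-0.36), SEP2 (0.90) and PSBS (-0.26) passed the threshold. Leaving out single arrays gave 0 to 5723 calls, all from the omission of low CO2 replicate 1. The difference ranged from -1.20 to 0.15 for ELIP1 (0.15, adjusted p = 0.910, without ambient replicate 2), from -0.50 to -0.30 for LIL3:1, from -0.49 to -0.26 for LIL3:2 and from 0.46 to 0.77 for SEP2. Among the 11 direct comparisons, those that changed sign were LIL3:1 minus LIL3:2 (-0.21 to 0.10), ELIP1 minus the antenna median (-1.35 to 0.14) and OHP2 minus the antenna median (-0.10 to 0.15, and -0.01 without ambient replicate 3). List medians near 0 also changed sign over single omissions, for the antenna (-0.01 to 0.03) and mesophyll markers (-0.02 to 0.01). The median of the high light genes, -0.26 with all 6 arrays, changed sign too (-0.34 to 0.01, the latter without ambient replicate 2). That of the quenching and electron flow genes, 0.16 with all 6 arrays, kept its sign but moved. It was 0.24 without low CO2 replicate 1 and 0.23 without ambient replicate 1. The root marker median went from -0.14 to 0.02 at a floor of log2 5. At that floor the dividing cell median went from -0.54 to -0.68 and the guard cell median from -0.36 to -0.59. The cause was not tested.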
